A study of Mus musculus with 12 samples.

Results

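The genes described here encode the cell-surface plasminogen activation system, matrix metalloproteinases and their tissue inhibitors: Plau, Plaur, Plat, Mmp2, Mmp3, Mmp9, Mmp13, Timp1 and Timp3. They were chosen by symbol as a set of protease genes and inhibitors with a known history of phorbol ester responses, and all 9 were found by their Ensembl identifiers among the 37310 genes of the deposited count table. Each of the 9 also passed the filter on low counts that left 16630 genes for testing. RNA was sequenced from mouse cell lines derived from embryonic fibroblasts. A line labelled as knockout for HP1γ (the KO line) was set against a line in which HP1γ expression had been restored (the HPg line). Cbx3 encodes HP1γ, which recognises methylated lysine on histone H3 and is found in heterochromatin and in active genes. Both lines were grown in DMEM with fetal calf serum and sampled untreated or after 30 min with PMA (phorbol 12-myristate 13-acetate) at 100 nM in DMSO. PMA stands in for the lipid signal diacylglycerol and so switches on protein kinase C. Whether untreated cells received DMSO is not stated in the labels. The 4 groups of 3 libraries are called HPg, HPg PMA, KO and KO PMA, and the series' text describes the replicates as biological. Each genotype is represented by 1 line, so a difference between the lines and an effect of HP1γ cannot be told apart, and the p-values speak only of the spread between replicate cultures.

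Urokinase (Plau) and tissue-type plasminogen activator (Plat) cleave plasminogen to plasmin, a broad protease that degrades fibrin and activates other proteases. The urokinase receptor (Plaur) holds urokinase at the cell surface. Stromelysin-1 (Mmp3), collagenase-3 (Mmp13) and the gelatinases Mmp2 and Mmp9 are secreted as inactive precursors and degrade collagens and other matrix proteins, and TIMPs bind and block the active enzymes. In fibroblasts, several of these genes are textbook targets of phorbol esters through the transcription factor AP-1, a dimer of Fos and Jun proteins, often together with ETS factors.

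Promoter sequences are shown because the PMA comparison bears on AP-1. The 250 bases before the annotated start were read from RefSeq (build GRCm38.p6) for the 5 of 9 genes that matched, and the 4 printed here span genes that did and did not pass the test. Each is written 5′ to 3′ on the plus strand, which is the coding strand, and capitals mark matches to the AP-1 motif TGAGTCA or to the ETS motif AGGAAG, searched on both strands (reverse strand TGACTCA and CTTCCT). No match overlapped another.
Plaur (chr7:24462233-24462482): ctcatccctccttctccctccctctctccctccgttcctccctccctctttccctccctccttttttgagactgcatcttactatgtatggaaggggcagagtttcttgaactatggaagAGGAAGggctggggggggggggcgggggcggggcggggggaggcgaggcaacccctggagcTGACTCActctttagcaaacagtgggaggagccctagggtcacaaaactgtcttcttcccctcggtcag
Mmp3 (chr9:7445572-7445821): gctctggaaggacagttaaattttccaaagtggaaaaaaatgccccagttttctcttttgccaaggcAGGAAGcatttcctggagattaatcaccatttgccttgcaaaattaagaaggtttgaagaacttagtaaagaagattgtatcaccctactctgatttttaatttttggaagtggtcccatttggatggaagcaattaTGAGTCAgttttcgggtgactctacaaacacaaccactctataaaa
Mmp13 (chr9:7272264-7272513): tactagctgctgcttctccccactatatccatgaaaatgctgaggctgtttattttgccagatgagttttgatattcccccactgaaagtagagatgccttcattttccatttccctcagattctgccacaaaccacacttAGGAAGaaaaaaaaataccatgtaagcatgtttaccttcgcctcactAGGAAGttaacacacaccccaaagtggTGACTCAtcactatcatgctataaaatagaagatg
Timp1 (chrX:20869916-20870165): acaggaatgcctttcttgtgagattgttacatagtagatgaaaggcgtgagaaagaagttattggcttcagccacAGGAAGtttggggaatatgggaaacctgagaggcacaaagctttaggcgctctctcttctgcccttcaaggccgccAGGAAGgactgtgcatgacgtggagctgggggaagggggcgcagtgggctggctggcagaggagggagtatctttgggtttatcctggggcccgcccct
The AP-1 letters occurred once in the windows of Plaur, Mmp3 and Mmp13, beginning 69, 46 and 35 bases before the start. They were not in the windows of Timp1 and Timp3. Over all 32851 promoter windows of the same length, 4.46% held the AP-1 letters. The ETS letters were in all 5 windows, against 29.48% of all promoters. The letters TATAAA, searched in the written direction only, were in the windows of Mmp3 and Mmp13, against 7.59% of all promoters. They began 7 and 16 bases before the annotated start. All distances are counted from that start, whose position was not checked. A match describes letters in a window and is neither a binding site nor a cause of any value given here.

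Total counts per library ranged from 111458145 to 159929347, and 17822 to 20656 genes had a count. The Cbx3 transcript, which the labels make the altered gene, was measured at 38.7 ± 2.45 CPM in HPg, 38.6 ± 4.66 in HPg PMA, 36.5 ± 2.20 in KO and 31.8 ± 4.37 in KO PMA (SD, n = 3). CPM is the usual unit of counts scaled to a common library total, here with TMM factors. With edgeR's quasi-likelihood test, KO did not pass against HPg without PMA (log2 difference -0.08, adjusted p = 0.838) or with it (-0.28, adjusted p = 0.269), so the gene-level count does not check the labels. Of 10 fibroblast markers, 8 had a mean above 1 CPM in every group, and their summed level was 9204 to 16317 CPM. The macrophage list summed to 3.62 to 8.69 CPM and the neutrophil list to 0.0144 to 0.237 CPM. Of 6 bone and cartilage markers, Col2a1 alone had a mean above 1 CPM, and the sum of the list was 12.3 to 29.9 CPM in the HPg line and 32.4 to 39.2 CPM in the KO line. Acan, the other marker of that list that was tested, had an estimate of -0.32 in KO against HPg both without and with PMA. In bulk RNA, fewer cells of a type and less RNA per cell cannot be told apart. The libraries numbered 2 stood apart in every group: Timp3 was 0.70 to 0.82 higher (log2) in them than in the mean of libraries 1 and 3, and the collagen gene Col3a1 1.08 to 1.87 higher. Plau and Plaur were highest in the number 2 library of all 4 groups.

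Levels were compared between genes per kilobase of exon (RPKM, from the same scaled counts), and the inhibitors and the urokinase pair far exceeded the metalloproteinases. Timp3, a TIMP that stays bound to the matrix, had the highest level, with a mean of 114 RPKM over the 12 libraries (range 72.3 to 194). Plau followed at 28.7 RPKM (14.6 to 54.1) and the soluble inhibitor Timp1 at 26.7 RPKM (15.98 to 38.0). Plau exceeded Timp1 in only 5 of 12 libraries, so these neighbours in the order did not differ beyond their spread. Plaur at 11.6 RPKM (6.94 to 20.4) lay below Timp1 and above Plat in all 12 libraries. Plat averaged 5.28 RPKM (3.01 to 6.72).

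All 4 metalloproteinases among the 9 genes were low. Outside the 9 genes this did not hold for every metalloproteinase. Mmp14 ran from 35.0 to 50.0 RPKM over the 12 libraries and Mmp16 from 5.05 to 16.1 RPKM, both named here after their values were seen. Mmp3 averaged 1.12 RPKM (0.237 to 1.86), with 54 to 477 counts per library. Mmp2 had 0.164 RPKM (35 to 116 counts), Mmp9 0.1 RPKM (9 to 93 counts) and Mmp13 0.0418 RPKM (3 to 42 counts). The order Mmp2 over Mmp9 and Mmp9 over Mmp13 held in 11 of 12 libraries each, although Mmp2 and Mmp9 overlapped in range. The few counts behind Mmp9 and Mmp13 limit how small a difference could be detected.

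**Figure D1:**
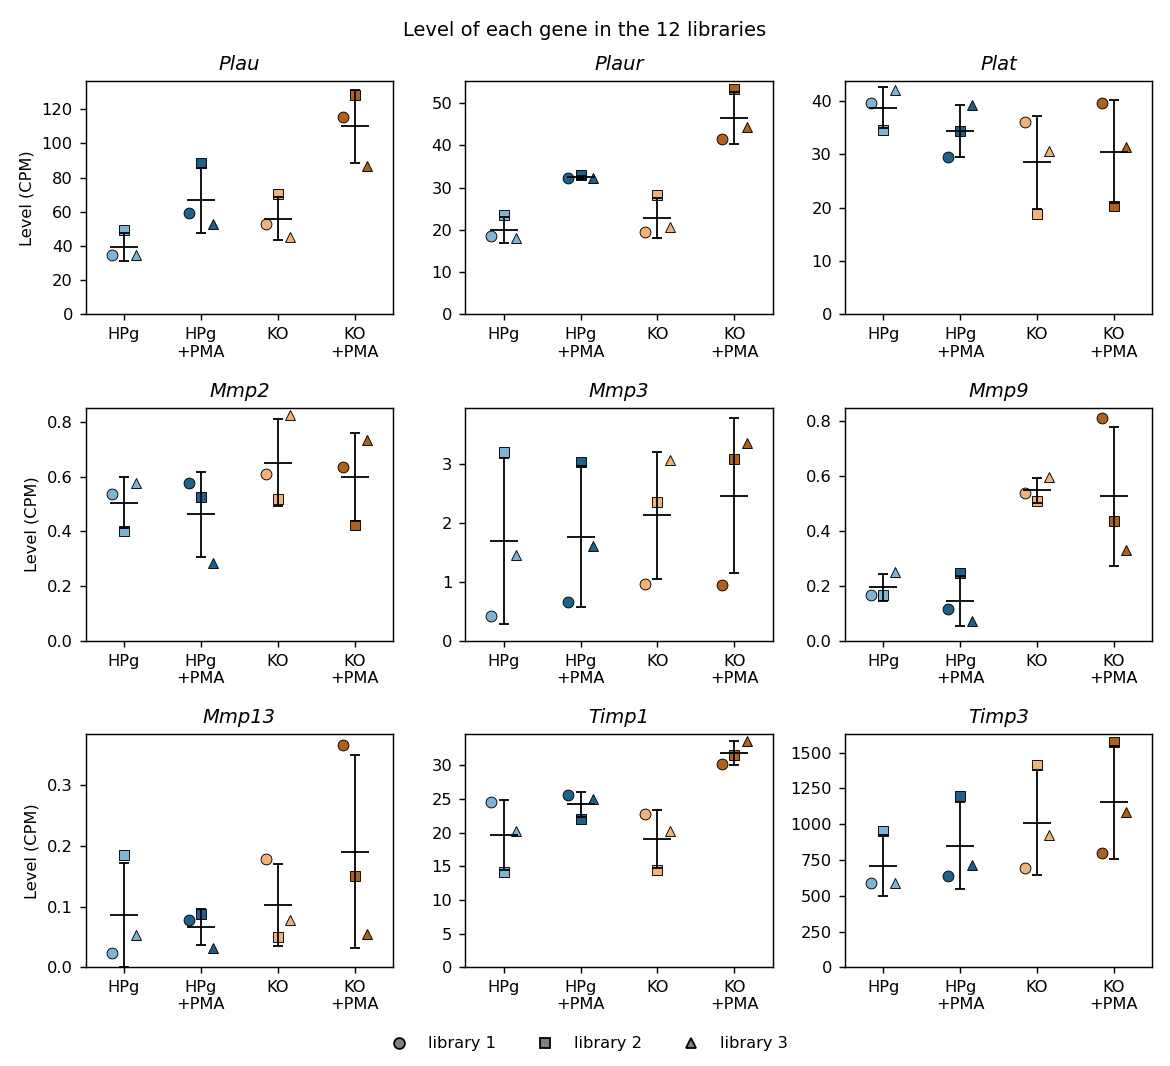
Level of each of the 9 genes in CPM (y axis, one panel per gene) in the 12 libraries by group (x axis); points are libraries and bars the mean ± SD of 3. Plaur in the KO PMA libraries sits between 41.6 and 53.4 CPM, above every other library, while Mmp2, Mmp3 and Mmp13 overlap across all groups.

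The PMA comparisons ask how the transcriptome of each line responds within 30 min. The urokinase receptor and urokinase were higher after PMA: in HPg cells Plaur rose and Plau had a similar estimate that missed the threshold, and in KO cells both rose. In HPg cells 1 of 9 genes was called higher and none lower, where 3.45% of all genes tested were called and 2.53% were called higher. In KO cells 2 of 9 were called higher and none lower, where 4.44% of all genes were called and 2.81% higher. A gene was called at an adjusted p below 0.05, with Benjamini-Hochberg adjustment over all genes tested. The median log2 difference of the 9 genes was 0.06 in HPg and 0.21 in KO, beside -0.02 for all genes in both lines. Libraries of the groups did not overlap for 2 of 9 genes in HPg, against 22.7% of all genes, and for 3 of 9 in KO, against 21.8%. With the replicate number as a block 2 of 9 were called in HPg (14.8% of all genes) and 3 of 9 in KO (13.4%), the same counts as with chromosome medians also removed (14.7% and 13.5%). DESeq2 also called 2 in HPg (7.90% of all genes) and 3 in KO (7.69%). The genes added were Plau in HPg and Timp1 in KO.

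Plaur was measured at 18.4, 23.6 and 18.2 CPM in HPg libraries 1 to 3 and at 32.3, 32.9 and 32.2 CPM in HPg PMA. Every treated library lay above every untreated one, and the treated libraries were almost level. The increase was 0.69 on the log2 scale (SE 0.16, 95% interval 0.35 to 1.04), 1.62-fold, with adjusted p = 0.0352 in edgeR. That call ended when HPg library 1 (adjusted p = 0.108), HPg library 3 (0.133) or HPg PMA library 1 (0.0886), 2 (0.101) or 3 (0.0949) was left out. It also ended with library totals as the only scaling (0.0756) and with the 2 groups alone (0.0582). Over 17 alternative settings the adjusted p ran from 0.000304 to 0.133, and the estimate from 0.62 to 0.83.

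In KO cells Plaur was measured at 19.5, 28.2 and 20.6 CPM untreated and at 41.6, 53.4 and 44.4 CPM with PMA. The groups did not overlap, and the folds of same-numbered libraries were 2.14, 1.90 and 2.16. The increase was 1.03 (SE 0.16, 95% interval 0.68 to 1.38) with adjusted p = 0.00311 in edgeR. It was called under all 17 alternatives, with adjusted p from 1.23e-06 to 0.0272.

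Plau, the protease that Plaur binds, was measured at 34.5, 49.1 and 34.5 CPM in HPg and at 59.1, 88.4 and 52.6 CPM in HPg PMA. All treated libraries lay above all untreated ones, with library 2 the highest in both groups. The estimate was 0.76 (SE 0.23, 95% interval 0.25 to 1.27), with adjusted p = 0.104 in edgeR, which is not a call. With the replicate number as a block the adjusted p was 0.000203, the lowest of 17 alternatives, the highest being 0.301. Without the 4 libraries numbered 2, a setting added after the data were seen, it was 0.0331.

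In KO cells Plau was measured at 52.6, 70.2 and 45.3 CPM untreated and at 115, 128 and 86.5 CPM with PMA. Again the groups did not overlap, and the paired folds were 2.19, 1.82 and 1.91. The increase was 0.97 (SE 0.23, 95% interval 0.46 to 1.48) with adjusted p = 0.0355 in edgeR. The call ended when KO library 1 (adjusted p = 0.0986) or 3 (0.17), or KO PMA library 1 (0.079) or 2 (0.148), was left out. It also ended with library totals as the only scaling (0.0713), and the 17 alternatives ran from 1.15e-05 to 0.17.

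Plat, the other activator, did not pass in either line. It was measured at 39.5, 34.6 and 42.0 CPM in HPg and 29.5, 34.3 and 39.2 CPM in HPg PMA, with overlap between the groups (log2 -0.17, 95% interval -0.71 to 0.37, edgeR adjusted p = 0.799). In KO it was measured at 35.9, 18.8 and 30.6 CPM untreated and 39.5, 20.4 and 31.4 CPM with PMA. These libraries also overlapped, with library 2 the lowest of each KO group (log2 0.10, 95% interval -0.44 to 0.64, edgeR adjusted p = 0.919). The intervals leave room for a change of either sign.

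**Figure D2:**
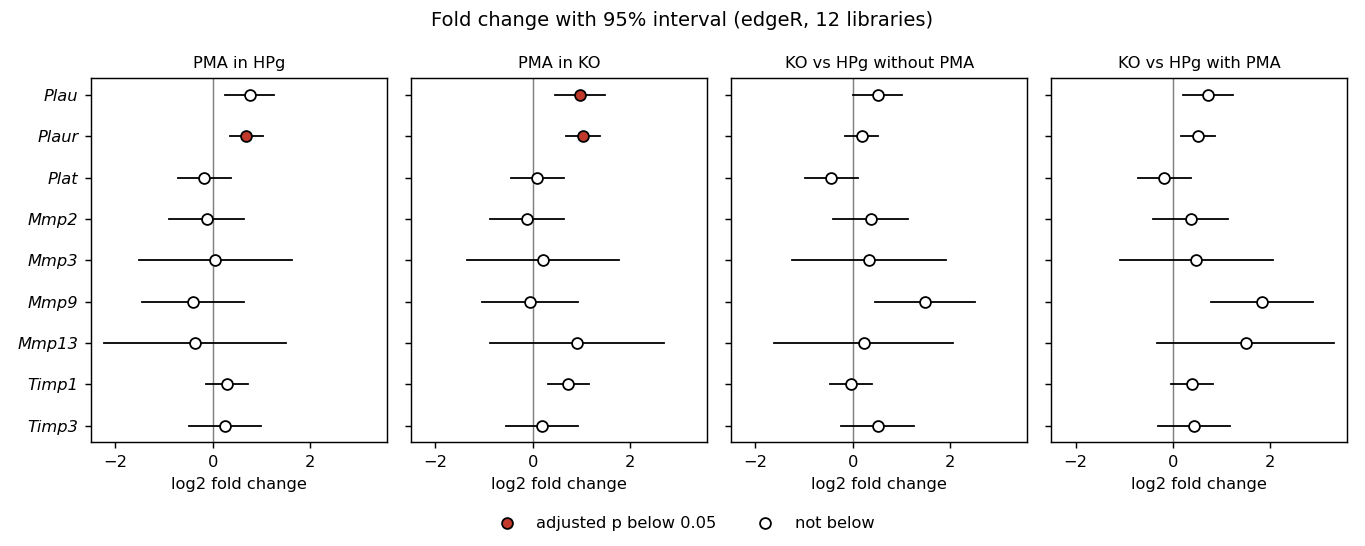
Log2 difference of each of the 9 genes (x axis, with the 95% interval of the edgeR fit as a line) in the PMA comparison of each line and in the comparison of lines without and with PMA. Plaur with 0.69 and 1.03 and Plau with 0.97 are the estimates called after PMA; the intervals of Mmp3 and Mmp13 are the widest.

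None of the 4 metalloproteinases passed after PMA in either line. Mmp3 was measured at 0.426, 3.21 and 1.46 CPM in HPg and at 0.653, 3.03 and 1.62 CPM in HPg PMA. The spread between replicate numbers far exceeded the difference between groups, and the estimate was 0.06 (95% interval -1.52 to 1.63, edgeR adjusted p = 0.984). In KO the values were 0.959, 2.36 and 3.07 CPM, and 0.951, 3.09 and 3.36 CPM with PMA (0.21, 95% interval -1.36 to 1.78, edgeR adjusted p = 0.947). Library 1 was the lowest of every group. Mmp13 was measured between 0.0237 and 0.184 CPM in HPg and between 0.0326 and 0.0888 CPM in HPg PMA. In KO it ran from 0.0503 to 0.179 CPM and from 0.0552 to 0.366 CPM with PMA. The estimates were -0.36 (95% interval -2.22 to 1.504) and 0.91 (-0.87 to 2.69), with edgeR adjusted p = 0.893 and 0.691. These intervals leave room for a change of several fold in either line. Counts were few and also uneven between libraries, with 3, 22 and 7 in HPg.

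The gelatinases overlapped between treated and untreated libraries in both lines. Mmp2 ran from 0.403 to 0.577 CPM in HPg and from 0.286 to 0.576 CPM in HPg PMA, and from 0.517 to 0.825 and 0.422 to 0.735 CPM in KO without and with PMA. Its estimate was -0.12 in both lines (edgeR adjusted p = 0.914 and 0.929). Mmp9 was measured at 0.166, 0.168 and 0.250 CPM in HPg and 0.116, 0.247 and 0.0734 CPM in HPg PMA (-0.40, 95% interval -1.45 to 0.65, edgeR adjusted p = 0.745). In KO it was 0.538, 0.510 and 0.598 CPM, and 0.811, 0.437 and 0.331 CPM with PMA (-0.06, 95% interval -1.05 to 0.93, edgeR adjusted p = 0.979). The treated KO libraries lay on both sides of the untreated ones.

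Of the inhibitors, Timp1 was close to a call in KO cells. It was measured at 22.8, 14.4 and 20.2 CPM in KO and at 30.2, 31.6 and 33.7 CPM in KO PMA. Every treated library lay above every untreated one, and library 2, the lowest without PMA, was level with the others after it. The estimate was 0.73 (SE 0.20, 95% interval 0.31 to 1.16) with adjusted p = 0.058 in edgeR. It passed with the replicate block (adjusted p = 0.00191) and in 4 of 17 alternatives in all, over which the adjusted p ran to 0.189. In HPg the values were 24.5, 14.2 and 20.3 CPM, and 25.5, 22.1 and 25.0 CPM with PMA, which overlapped (0.30, 95% interval -0.13 to 0.73, edgeR adjusted p = 0.489). Timp1 lies within Syn1, on the opposite strand, and shares no exon bases with it in GENCODE M21. Syn1, a synapsin gene, was measured at 0.429 ± 0.0647 CPM in KO and 1.06 ± 0.104 CPM in KO PMA (SD, n = 3). It rose there by 1.31 (edgeR adjusted p = 0.0253). In HPg it was measured at 0.483 ± 0.130 CPM, and at 0.808 ± 0.184 CPM with PMA (SD, n = 3). Those groups did not overlap, with an estimate of 0.74 that was not called (edgeR adjusted p = 0.204). The labels do not state the strand setting of the counting, and the part of either gene's reads in the other's count was not tested.

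Timp3 did not pass after PMA. It was measured at 589, 956 and 589 CPM in HPg and 639, 1197 and 717 CPM in HPg PMA (0.26, 95% interval -0.48 to 1.00, edgeR adjusted p = 0.775). In KO it was measured at 697, 1414 and 925 CPM, and at 800.1, 1577 and 1084 CPM with PMA (0.19, 95% interval -0.55 to 0.93, edgeR adjusted p = 0.874). Each treated library was above the untreated one of the same number, by 1.08 to 1.25-fold in HPg and 1.115 to 1.17-fold in KO. Timp3 shares 1733 exon bases with Syn3, which lies on the opposite strand and was measured at 13.9 to 31.0 CPM as group means.

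**Figure D3:**
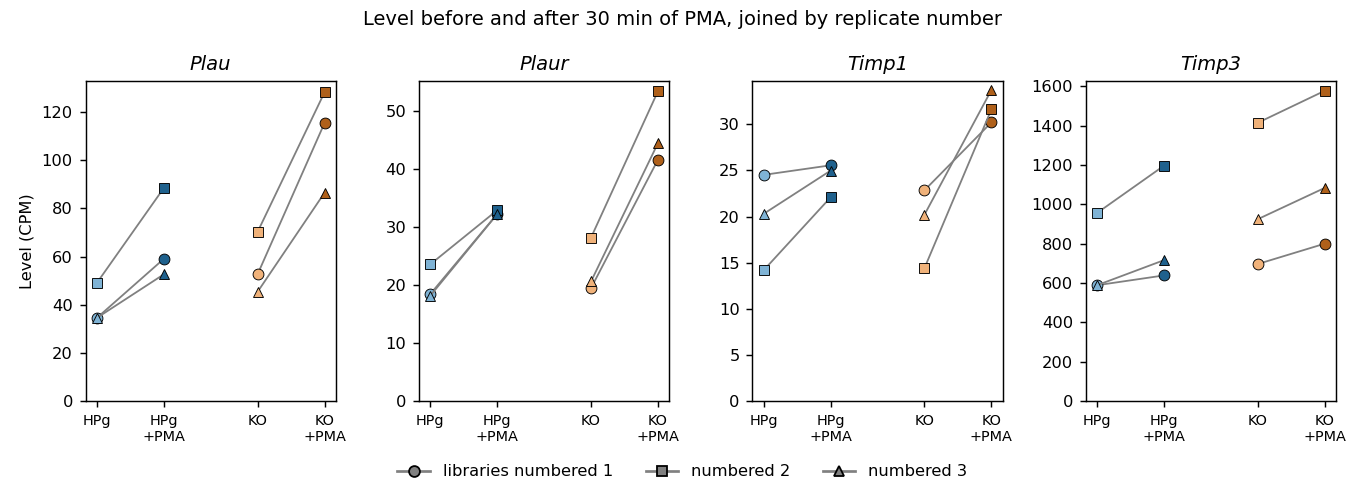
CPM (linear y axis from 0) of Plau, Plaur, Timp1 and Timp3 without and with PMA, with a line joining libraries of the same number within each cell line. The PMA library is the higher one in all 6 pairs for each of the 4 genes, by 2.14, 1.90 and 2.16-fold for Plaur in KO.

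The partners and inhibitors of the plasminogen system were read from a list of 13 genes, of which 9 were tested. The edgeR test called 0 of them after PMA in either line. At an unadjusted p below 0.05 it found 2 in HPg and 1 in KO, against 17.4% and 15.9% of all genes. DESeq2 called 1 in HPg and 0 in KO, where it called 7.90% and 7.69% of all genes. The gene called by DESeq2 was Serpinf2, which encodes the plasmin inhibitor antiplasmin and was named after its values were seen (1.94, adjusted p = 0.00764). With the replicate block Serpinf2 and Serpini1, a serpin that inhibits tissue-type activator, were called higher in HPg (adjusted p = 0.0234 and 0.0235; without the block 0.0502 and 0.158). Plg, which encodes plasminogen itself and is made mainly in liver, had 0 to 12 counts per library and was not tested.

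Of the 17 genes listed as AP-1 and ETS factors, all were tested, and edgeR called 8 higher and none lower after PMA in each line. Of all genes, 2.53% were called higher and 0.920% lower in HPg, and 2.81% and 1.63% in KO. In HPg, named in order of unadjusted p, Fosl1 rose by 3.47, Fos by 6.10, Junb by 4.17 and Atf3 by 2.397 (edgeR adjusted p = 4.874e-09, 6.887e-06, 9.058e-06 and 0.000386). In KO, Fosl1 rose by 4.44, Fos by 6.81, Junb by 4.54 and Jun by 1.85 (edgeR adjusted p = 4.137e-10, 2.328e-06, 3.922e-06 and 2.828e-05). These subunits rose further than Plau or Plaur, whose increases were at most 1.03. The comparison of AP-1 genes with the 9 genes is a description of sizes, with no test.

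Other protease and inhibitor genes were mostly not called after PMA. Of 19 further matrix metalloproteinases 11 were tested, of 12 other metalloproteinase inhibitors and activators 9, and of 18 ADAM and ADAMTS proteases 17. The edgeR test called 0 of these in either line. At an unadjusted p below 0.05 it found 2, 0 and 1 of them in HPg and 2, 0 and 3 in KO. The shares of all genes were 17.4% in HPg and 15.9% in KO. DESeq2 called 1, 0 and 0 in each line, where it called 7.90% and 7.69% of all genes. The gene called by DESeq2 was Mmp27, a metalloproteinase named after its values were seen, with 0 to 72 counts per library, with log2 2.72 in HPg and 2.42 in KO (adjusted p = 0.00904 and 0.0125). With the replicate block 1, 1 and 2 of them were called higher in HPg and 1, 0 and 1 lower, and in KO 1, 1 and 2 higher and 0, 1 and 0 lower, where it called 14.8% and 13.4% of all genes. Timp2, named after its values were seen, is the inhibitor that also takes part in Mmp2 activation. Its estimates were 0.49 in HPg and 0.69 in KO, with edgeR adjusted p = 0.605 and 0.473, and 0.00977 and 0.000536 with the replicate block. Over 17 alternatives its adjusted p ran from 0.00924 to 0.982 in HPg and from 0.000536 to 0.785 in KO.

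The comparison of lines asks how expression differs where HP1γ is labelled absent. Without PMA, 7 of the 9 genes had a higher estimate in KO than in HPg, but none was called in edgeR, where 1.32% of all genes tested were called. At an unadjusted p below 0.05 edgeR found 2 of the 9, against 14.3% of all genes, and DESeq2 called 1, Mmp9, where it called 4.66% of all genes. The median of the 9 was 0.33, beside 0.01 over all genes. Libraries did not overlap for 1 of 9 genes, Mmp9, against 18.5% of all genes. With the replicate block 2 of 9 were called, Plau and Timp3, where 12.5% of all genes were called. With chromosome medians also removed Timp3 alone was called, where 6.94% of all genes were.

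With PMA, 8 of 9 estimates were higher in KO, with a median of 0.48 beside 0.01 over all genes, and again edgeR called none, where 2.47% of all genes were called. At an unadjusted p below 0.05 it found 3 of the 9, against 18.4% of all genes, and DESeq2 called Mmp9, where it called 7.72% of all genes. Libraries did not overlap for 3 of 9 genes (Plaur, Mmp9 and Timp1), against 25.0% of all genes. With the replicate block 5 of 9 were called higher and none lower, where 18.6% of all genes were called and 9.49% were called higher. With chromosome medians also removed 4 of 9 were called, where 12.5% of all genes were. The comparisons share libraries with the PMA comparisons, since each group enters more than one of them.

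Plau in untreated cells ran from 34.5 to 49.1 CPM in HPg and from 45.3 to 70.2 CPM in KO, which overlapped. Each KO library was above the HPg library of the same number, by 1.52, 1.43 and 1.31-fold. The estimate was 0.51 (95% interval 0.00 to 1.02) with edgeR adjusted p = 0.342, and 0.00433 with the replicate block. Chromosome 14, which carries Plau, had a median KO to HPg difference of 0.31 over its 517 tested genes. With chromosome medians removed and the block kept, the Plau estimate was 0.18 with adjusted p = 0.308, and the 17 alternatives ran from 0.00433 to 0.885. With PMA the estimate was 0.72 (SE 0.23, 95% interval 0.22 to 1.23), edgeR adjusted p = 0.126. There the paired folds were 1.95, 1.45 and 1.64, and the adjusted p was 0.000294 with the block and 0.00727 with the block and chromosome medians removed, within a range of 0.000294 to 0.393. It was 0.0467 without HPg PMA library 2 and 0.00647 without the 4 libraries numbered 2.

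Plaur, in untreated cells 18.2 to 23.6 CPM in HPg and 19.5 to 28.2 CPM in KO, had an estimate of 0.18 (95% interval -0.16 to 0.53, edgeR adjusted p = 0.68). With PMA the 3 KO libraries, from 41.6 to 53.4 CPM, lay above the 3 HPg libraries at 32.2 to 32.9 CPM. The estimate was 0.52 (SE 0.16, 95% interval 0.17 to 0.86, edgeR adjusted p = 0.109). It was 0.00404 with the replicate block and 0.0489 with the block and chromosome medians removed, in a range over 17 alternatives of 0.00404 to 0.358. The median over the 1153 genes of chromosome 7 was 0.17.

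Plat was the one gene of the 9 with a lower estimate in KO both without PMA (-0.44, 95% interval -0.99 to 0.10, edgeR adjusted p = 0.46) and with it (-0.17, 95% interval -0.72 to 0.37, edgeR adjusted p = 0.771). Libraries overlapped in each case. The sign with PMA turned to 0.05 without the libraries numbered 2.

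Mmp9 had the largest estimate of the 9 between lines, on few counts. The KO libraries were at 0.510 to 0.598 CPM and the HPg libraries at 0.166 to 0.250 CPM without PMA, and at 0.331 to 0.811 against 0.0734 to 0.247 CPM with it. All KO libraries lay above all HPg libraries in both conditions. The estimate was 1.49 without PMA (SE 0.47, 95% interval 0.46 to 2.52, edgeR adjusted p = 0.164) and 1.83 with it (SE 0.48, 95% interval 0.79 to 2.88, edgeR adjusted p = 0.0656). DESeq2 called both, with adjusted p = 0.0479 and 0.00614. Over 16 alternatives the adjusted p ran from 0.0479 to 0.391 without PMA and from 0.00614 to 0.256 with it. With the replicate block it was 0.0189 with PMA, and without HPg PMA library 2 it was 0.0303. Mmp9 is best known from neutrophils and macrophages, and 1 of the 6 neutrophil markers was at 0 in every library. The neutrophil list summed to 0.0419 to 0.237 CPM in HPg and 0.0144 to 0.197 CPM in KO. The macrophage list summed to 3.62 to 4.39 CPM in HPg and 4.90 to 5.86 CPM in KO. With PMA it summed to 4.77 to 6.42 and 6.57 to 8.69 CPM. Only 3 of its 7 genes had a mean above 1 CPM in each group, and 5 were tested. All 5 had a higher estimate in KO, with medians of 0.13 without PMA and 0.46 with it. The edgeR test called 0 of them between the lines in either condition. The part of single genes in these sums was not tested. The part of neutrophils or macrophages in the Mmp9 difference was not tested either.

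Estimates for the other metalloproteinases had intervals that included 0. Mmp2 was 0.36 higher in KO both without and with PMA (edgeR adjusted p = 0.717 and 0.638), Mmp3 0.33 and 0.48 (0.897 and 0.784), and Mmp13 0.23 and 1.49 (0.946 and 0.368). For Mmp13 with PMA the interval ran from -0.32 to 3.31. The widths of these intervals show that changes of more than 1.5-fold could have been missed.

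Without PMA, Timp1 ran from 14.2 to 24.5 CPM in HPg and from 14.4 to 22.8 CPM in KO (-0.04, 95% interval -0.47 to 0.39, edgeR adjusted p = 0.961). With PMA the KO libraries, at 30.2 to 33.7 CPM, lay above the HPg libraries, at 22.1 to 25.5 CPM. The estimate was 0.40 (SE 0.20, 95% interval -0.03 to 0.82), edgeR adjusted p = 0.307, and the call with the replicate block (adjusted p = 0.0489) ended once chromosome medians were also removed (0.0609). The 17 alternatives ran from 0.0489 to 0.489.

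Timp3 was higher in the KO library of every replicate number, by 1.18, 1.48 and 1.57-fold without PMA and 1.25, 1.32 and 1.51-fold with it. The libraries of the lines overlapped, with the number 2 library of each group above the other two. The estimates were 0.51 (edgeR adjusted p = 0.559) and 0.44 (0.54). The block gave adjusted p = 0.0109 and 0.0132. With chromosome medians also removed the estimates were 0.72 and 0.68, with adjusted p = 0.00125 and 0.00173, since the median of the 759 tested genes of chromosome 10 was -0.28 and -0.24. Over 17 alternatives the adjusted p ran to 0.886 without PMA and 0.885 with it. Syn3, which shares exon bases with Timp3, had estimates of 0.68 and 0.66 (edgeR adjusted p = 0.411 and 0.34). It was higher in KO in all 3 pairs without and with PMA. The part of either gene's reads in the other's count was not tested.

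**Figure D4:**
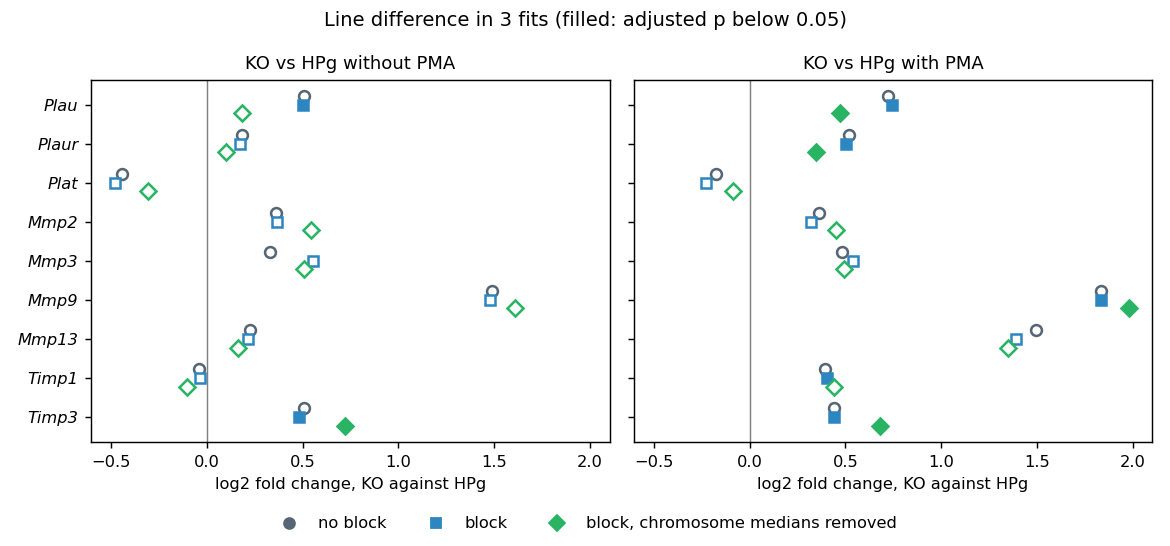
Log2 difference KO against HPg of the 9 genes (x axis) without and with PMA in 3 edgeR fits: no block, replicate block, and replicate block with chromosome medians removed. Filled points have an adjusted p below 0.05: none without the block, 2 and 5 of 9 with it, and 1 and 4 of 9 with chromosome medians also removed.

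Among the further lists, edgeR called 0 genes between the lines without PMA, where 1.32% of all genes were called. With PMA it called 1 of the 11 further matrix metalloproteinases tested and 1 of the 17 AP-1 and ETS genes. It also called 1 of the 2 bone and cartilage markers tested and the 1 muscle marker tested. Of all genes 2.47% were called with PMA. With PMA, Mmp16, a membrane-type metalloproteinase, fell by 0.97 in KO against HPg (SE 0.19, edgeR adjusted p = 0.0233). It was measured at 139.5, 75.0 and 92.5 CPM in HPg PMA and at 55.8, 43.8 and 57.3 CPM in KO PMA. The call ended without HPg PMA library 1 (adjusted p = 0.0749) or 3 (0.0694) and without KO PMA library 1 (0.0826), 2 (0.0829) or 3 (0.0562). It also ended with chromosome medians removed and no block (0.0518) and with the 2 groups alone (0.0537), and the 17 alternatives ran from 0.000222 to 0.0829. Fosl1 was higher in KO with PMA by 0.63 (edgeR adjusted p = 0.0081), and this call ended without HPg PMA library 3 (0.0585), the highest of 17 alternatives, which began at 1.97e-07. Of the 17 ADAM and ADAMTS genes tested, 14 had a higher estimate in KO without PMA and 11 with it. Their medians were 0.25 and 0.33, beside 0.01 over all genes in each condition. The edgeR test called 0 of them. At an unadjusted p below 0.05 it found 4 and 2, against 14.3% and 18.4% of all genes. DESeq2 called 1 in each condition, where it called 4.66% and 7.72% of all genes. That gene was Adamts10, named after its values were seen (0.53 and 0.60, adjusted p = 0.0356 and 0.00784). The replicate block called 5 and 6 of the list higher and none lower, where it called 7.08% and 9.49% of all genes higher. It called Adamts5, Adamts10 and Adamts14 in both conditions. Against the same shares, the block called 2 of the 9 plasminogen partners in each condition and 3 and 4 of the 9 inhibitors and activators higher in KO. Of the 17 AP-1 and ETS genes it called 7 higher and 2 lower with PMA, where 9.09% of all genes were called lower. DESeq2 called 3 of these 17 higher and 0 lower with PMA, where it called 7.72% of all genes. Among markers of other cell types, Col2a1 (cartilage collagen; 1.16, edgeR adjusted p = 0.0388) and Des (muscle desmin; 1.76, edgeR adjusted p = 0.0328) were higher in KO with PMA. Each call ended without HPg PMA library 1 or 3 or without any of the KO PMA libraries (adjusted p up to 0.181 and 0.162). Des was the 1 muscle marker of 5 that was tested, and 0 of the 5 had a mean above 1 CPM. With PMA the muscle list summed to 0.323 to 0.514 CPM in HPg and 1.08 to 1.30 CPM in KO. The Col2a1 call also ended with chromosome medians removed and no block (adjusted p = 0.0926).

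Whether the PMA response itself differed between lines was tested with the interaction of line and treatment. The estimate was above 0 for 8 of 9 genes, with a median of 0.27 beside 0.02 over all genes. None was called in edgeR, none had an unadjusted p below 0.05, and none was called by DESeq2, where edgeR called 0% of all genes and DESeq2 0.00602%. Of all genes, 328 had an unadjusted p below 0.05, and the gene called by DESeq2 was Fosl1. The replicate block, with or without chromosome medians removed, also called none. For Plau the difference of the responses was 0.21 (95% interval -0.50 to 0.92), for Plaur 0.34 (-0.15 to 0.82) and for Timp1 0.43 (-0.17 to 1.04), each with edgeR adjusted p = 0.999956. The estimate was 0.35 for Mmp9, 0.15 for Mmp3, 1.27 for Mmp13, 0.00 for Mmp2 and -0.07 for Timp3, and the signs for Mmp9, Mmp3, Mmp2 and Timp3 depended on the setting. The calls made for Plau in KO but not in HPg therefore do not show that the responses differ.

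Among 11111 genes with a mean of at least 1 CPM, the level of Plau over the 12 libraries followed most closely that of Stat3 (Pearson r = 0.975) and Adm (0.968). The level of Plaur followed most closely that of Pvr (0.968) and Fosl2 (0.967), an AP-1 subunit. The 12 points share the 4 groups and the replicate numbers, and these values are descriptions chosen as the highest of many.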

How the data were processed

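RNA-seq libraries (12, in 4 groups of 3) were made from rRNA-depleted total RNA with a directional, paired-end protocol, per the labels' protocols. The values deposited are whole-number counts for each gene, left unnormalized by the authors, judging from the table itself. The submitters' processing notes name cutadapt 1.11, STAR 2.5.0a, featureCounts 1.4.6-p3, Subread and build mm9, while an annotation release and a strand setting are not given there. GENCODE M21 (GRCm38) served for symbols, exon lengths, chromosomes and overlaps only.

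The edgeR 4.0.16 quasi-likelihood F-test (R 4.3.3; robust, TMM factors, filterByExpr with minimum count 10 and minimum total 15, limma 3.58.1) was fitted on all 12 libraries with 1 coefficient per group. P-values were adjusted by Benjamini-Hochberg over 16630 genes and called below 0.05. A permutation of 3 against 3 libraries cannot go below 0.1. Alternatives were RLE and upper-quartile factors, library totals only, no filter, at least 1 CPM in 3 libraries, the replicate block, removal of chromosome medians, DESeq2 1.42.0, the 2 groups alone, leaving out each library and, added after seeing the data, leaving out the 4 libraries numbered 2. The fit was run on simulated counts with independent libraries and a change in the HPg PMA group only. That run does not cover the differences between replicate numbers seen here.

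As a check of pairing, each library's deviation from its group mean was correlated between groups. The 18 pairs sharing a number gave r of 0.159 to 0.558, and the 36 other pairs -0.517 to 0.163. These ranges overlapped slightly. Deviations within a group cancel out, so the values of same-numbered and other pairs are not independent. The libraries numbered 2 stood apart in every group, and their part in these values was not tested. Whether the other numbers match across groups was therefore not settled. The replicate block takes all same-numbered libraries as matched. What a number stands for (a day or a batch of cells) is not in the labels. Within groups, pairs of libraries differed beyond sampling noise (chi-square per degree of freedom 112 to 744).

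The genes and lists were chosen with earlier results of these data known. All 9 genes are named, and up to 4 called genes per further list and comparison in order of unadjusted p. For genes called in some comparison, the 2 genes most alike are named, without predicted-gene, clone or numbered-locus names. A further gene of the lists is not reported here.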

Additional observations from a re-analysis of the deposited data

Results flagged for a closer look

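Plat, the tissue-type plasminogen activator, was lower after PMA in all 3 HPg pairs of the same number (0.746, 0.993 and 0.933-fold) and higher in all 3 KO pairs (1.10, 1.08 and 1.03-fold). The difference of the responses was 0.27 on the log2 scale (95% interval -0.50 to 1.03; edgeR unadjusted p = 0.459, adjusted p = 0.999956). It was singled out because every pair of one line moved opposite to every pair of the other. The pattern rests on matching libraries by number, which was not settled, and no share of all genes is given for it.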

How the results depend on the processing

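Of 795 log2 differences of the 9 genes under alternative settings, 695 kept their direction and side of the threshold, 26 gained a call, 12 lost one and 62 changed sign, and none of those 62 was called. The number of genes called between lines without PMA, 0, became 2 with the replicate block, 1 with the block and chromosome medians removed and 1 with DESeq2. With PMA, 0 became 5, 4 and 1 under these settings and 2 without the libraries numbered 2, and 0 to 2 with a library left out (2, Plau and Mmp9, without HPg PMA library 2). For PMA in HPg, 1 became 2 under the block, the block with chromosome medians removed, DESeq2 and without the libraries numbered 2, 0 with library totals only and with the 2 groups alone, and 0 to 1 with a library left out. For PMA in KO, 2 became 3, with Timp1 added, under the block, the block with chromosome medians removed, DESeq2 and no filter, 1 with library totals only, and 1 to 2 with a library left out. Library totals only moved the median of all genes in KO to -0.14 from -0.02. The block changed no call of the 9 genes beyond those named. The cause of these changes was not tested, except that leaving out libraries or groups leaves fewer samples in the fit.

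Signs changed as follows. Between lines without PMA, Timp1 became 0.0047 with upper-quartile factors, and with PMA Plat became 0.045 without the libraries numbered 2. For PMA in HPg, Mmp3 became -0.018 with upper-quartile factors and -0.017 with library totals, and Mmp13 0.54 without the libraries numbered 2. For PMA in KO, Plat became -0.030 with library totals and Mmp9 0.010 without the libraries numbered 2. In the interaction, Mmp2 became -0.0022 with RLE factors, -0.10 with library totals, -0.0056 with no filter, -0.045 with the block, -0.048 with chromosome medians removed, -0.091 with both and -0.0067 with DESeq2. Mmp3 became -0.017 with the block or with both, and -0.17 without the libraries numbered 2, and Timp3 0.014 without them. With 1 library left out, the ranges between lines were -0.13 to 1.18 (Mmp3), -0.43 to 1.37 (Mmp13), -0.23 to 0.15 (Timp1) and -0.011 to 0.31 (Plaur) without PMA, and -0.41 to 0.044 (Plat) with it. For PMA in HPg they were -0.58 to 0.91 (Mmp3), -0.80 to 0.79 (Mmp13), -0.065 to 0.53 (Timp3) and -0.30 to 0.13 (Mmp2). For PMA in KO they were -0.13 to 0.60 (Mmp3), -0.10 to 0.52 (Timp3), -0.13 to 0.32 (Plat), -0.29 to 0.085 (Mmp2) and -0.50 to 0.19 (Mmp9). In the interaction they were -0.25 to 0.21 (Mmp2), -0.36 to 0.26 (Timp3), -0.70 to 0.80 (Mmp3) and -0.10 to 0.96 (Mmp9). With 3 to 42 counts for Mmp13 and 9 to 93 for Mmp9, depth and the spread between libraries both limit what could be seen for these genes. At the minimum of 1 CPM, Mmp2, Mmp9 and Mmp13 were not tested.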
